A study of Sus scrofa with 3 samples.

Results

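The miR-17-92 cluster and its paralogs were followed through liver small RNA libraries of 3 pig breeds. The 10 mature miRNAs were taken by name from the deposited read counts, all of their hairpins included: ssc-miR-17-5p, ssc-miR-17-3p, ssc-miR-18a, ssc-miR-19a, ssc-miR-19b, ssc-miR-20a, ssc-miR-20b, ssc-miR-92a, ssc-miR-92b-3p and ssc-miR-363. They are 10 of 411 mature names in the files and occupy 14 rows, since miR-19b, miR-92a, miR-20b and miR-363 are listed under 2 hairpins each. Livers were from Enshi black pigs, which are domestic pigs from China, from the Chinese wild boar, and from Large White pigs, a commercial breed of European origin. All tissue was from males aged 90 days after birth, with 1 library per breed. The labels speak of 3 male pigs and do not say which animal went into which library or whether any were pooled. No value below therefore has a replicate check, no p-value was computed, and a difference between libraries cannot be told apart from a difference between animals.

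The miR-17-92 cluster is a single primary transcript that is cut into hairpins for miR-17, miR-18a, miR-19a, miR-20a, miR-19b and miR-92a. In mammals it is transcribed under MYC and E2F factors, is high in dividing and blood-forming cells, and is raised in many hepatocellular carcinomas. A paralogous cluster on the X chromosome, miR-106a-363, carries miR-106a, miR-18b, miR-20b, a second copy each of miR-19b and miR-92a, and miR-363, while miR-92b lies apart from both. The mature miRNAs fall into seed families, which share the bases that pair with target mRNAs. In human and mouse cells the miR-17/20 family represses the cell cycle inhibitor CDKN1A and E2F1, and miR-92a represses the integrin ITGA5 in endothelial cells. The minor arm of the miR-17 hairpin, miR-17-3p, has a seed of its own.

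The hairpin order in the RefSeq annotation (assembly Sscrofa11.1, used for names and neighbours only) followed this layout. MIR17, MIR18A, MIR19A, MIR20A, MIR19B-1 and MIR92A-1 were neighbours within 10 kb in that order, and so were MIR363-1, MIR92A-2, MIR19B-2, MIR20B-1, MIR18B and MIR106A. MIR92B had none of the others beside it. Of 15 hairpins looked up, 13 matched, and the second entries of miR-20b and miR-363 did not. Those hairpins carried the same count as the first entries in every library, 97.83 reads each for miR-20b in the Enshi black library for example.

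The miRNA reads summed to between 7343045 and 7824848 per library after 6 repeated names were left out. miR-122, the hepatocyte miRNA, took 34.2% of them in the Enshi black, 39.5% in the wild boar and 41.4% in the Large White library. Levels are given as CPM, counts per 1000000 reads of a library after scaling by trimmed mean of M-values (TMM), which takes most miRNAs as equal between libraries. Unless said otherwise, intervals are exact at 95% and take in counting error alone, as reads without molecular identifiers are not independent molecules. A count of 0 would have allowed up to 0.323, 0.356 and 0.529 CPM in the Enshi black, wild boar and Large White libraries. All 10 miRNAs were above a minimum of 10 mean CPM on library totals, which 208 names passed. miR-20b passed it narrowly, with a mean of 14.7 and with 7.41 CPM of the library total in the wild boar.

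Together the 10 miRNAs held 138772 reads in the Enshi black library, or 1.80% of its miRNA reads (Clopper-Pearson interval 1.79 to 1.80). They held 125439 reads or 1.60% in the wild boar library (1.59 to 1.61) and 99794 reads or 1.36% in the Large White library (1.35 to 1.37). After TMM scaling the sums were 14938, 14879 and 17595 CPM in the same order of libraries. The log2 ratio of the summed reads was thus −0.24 for Enshi black over Large White and −0.24 for wild boar over Large White with TMM, but 0.40 and 0.24 on library totals. The sum had no direction against the Large White library that held under both scalings.

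The miR-17/20 family was led by miR-20a. miR-20a stood at 1588 CPM in the Enshi black, 1299 in the wild boar and 1830 in the Large White library. miR-17-5p, from the first hairpin of the same transcript, stood at 163, 166 and 126 CPM in those libraries. The X-linked miR-20b was the scarcest of the 10, at 21.1 CPM in the Enshi black (196 reads), 6.88 in the wild boar (58 reads) and 14.6 in the Large White library (83 reads). The Large White library was thus highest for miR-20a after TMM, and the Enshi black library, at 1908 CPM of the library total against 1413 in the Large White library, without it. The Enshi black library was highest for miR-20b under both. For miR-17-5p the Enshi black and wild boar libraries lay within counting error of each other (log2 ratio −0.03, interval −0.14 to 0.07), and the ratio was 0.12 on library totals.

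The miR-18 family was represented by miR-18a, which varied least of the 10 after TMM. It stood at 120 CPM in the Enshi black, 101 in the wild boar and 107 in the Large White library. The highest library was 1.18-fold above the lowest, against a median of 1.59-fold over all 208 names compared. On library totals it stood at 144, 109 and 82.8 CPM in the same libraries. For wild boar over Large White the interval of its log2 ratio held 0 (−0.23 to 0.07), and the ratio was 0.40 on library totals.

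The miR-19 family held miR-19b, which led in the Enshi black and Large White libraries, and miR-19a, which had the lowest ratio of wild boar over Large White. miR-19b stood at 6562 CPM in the Enshi black, 5066 in the wild boar and 9308 in the Large White library. miR-19a stood at 968, 603 and 1826 CPM in the same libraries. After TMM both were highest in the Large White and lowest in the wild boar library. After TMM these libraries were 3.03-fold apart in miR-19a CPM and 1.84-fold apart in miR-19b CPM. On library totals the gaps were 2.17-fold and 1.32-fold. On library totals the log2 ratio of miR-19b for Enshi black over Large White was instead above 0, at 0.13 (0.12 to 0.15).

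In the miR-92 family (miR-92a, miR-92b-3p and miR-363), miR-92a ran the other way from miR-19. It stood at 5258 CPM in the Enshi black, 7451 in the wild boar and 4166 in the Large White library. This made miR-92a the most abundant of the 10 in the wild boar library, 1.47-fold above miR-19b (1.45 to 1.49). In the other libraries miR-19b came first, 1.25-fold above miR-92a in the Enshi black (1.23 to 1.26) and 2.23-fold above it in the Large White library (2.20 to 2.27). miR-363, at the end of the X-linked cluster, stood at 156 CPM in the Enshi black, 63.1 in the wild boar and 94.7 in the Large White library. miR-92b-3p, from its separate locus, stood at 52.3, 62.7 and 64.9 CPM in those libraries, a highest level 1.24-fold above the lowest. Its log2 ratios against the Large White library, −0.31 for Enshi black and −0.05 for wild boar, were 0.33 and 0.43 on library totals. miR-17-3p was similarly flat at 49.1, 60.4 and 58.2 CPM.

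**Figure D1:**
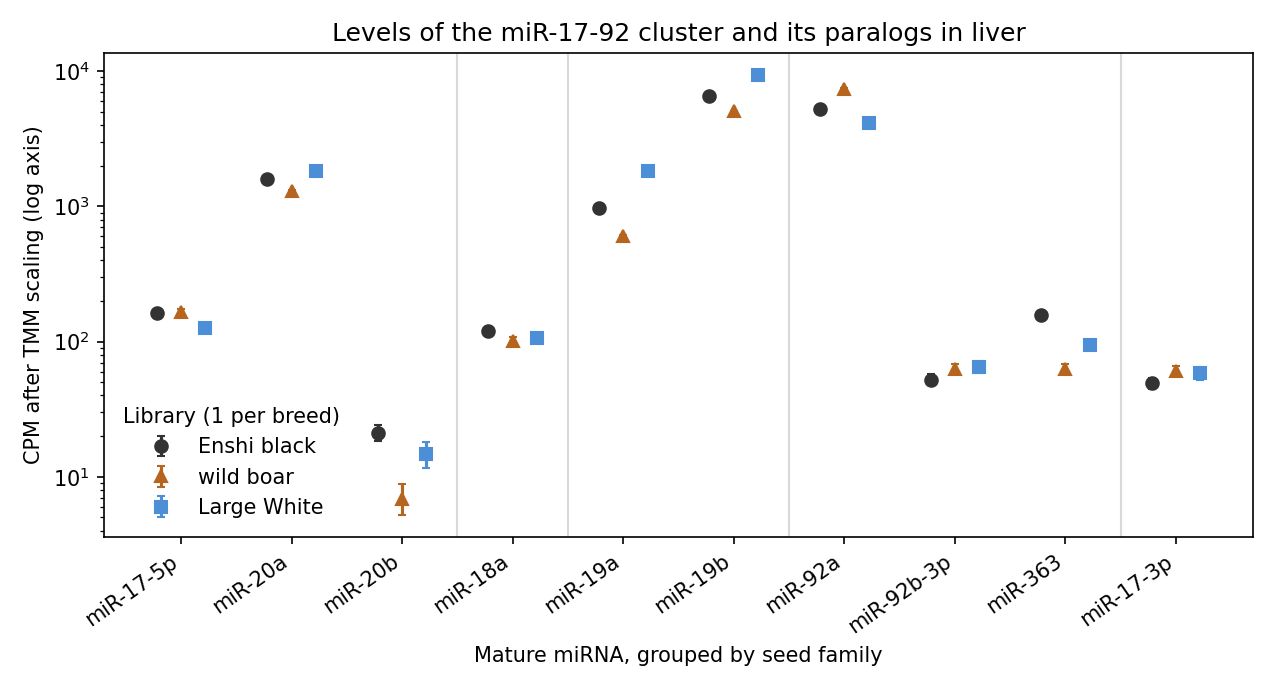
Levels of the 10 miRNAs in CPM after TMM scaling on a log axis, grouped by seed family, with 1 point per library and bars for the exact Poisson 95% interval of the read count (most are narrower than the point). miR-19a and miR-19b lie highest in the Large White library (miR-19b in the Enshi black library on library totals), miR-92a in the wild boar library, and miR-20b and miR-363 in the Enshi black library.

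Below the leading pair, the ladder of levels had much the same order in every library. It ran from miR-20a through miR-19a to miR-17-5p, and miR-20b came last. Neighbours that could not be separated by counting error were miR-92b-3p and miR-17-3p in all 3 libraries, miR-17-5p and miR-363 in the Enshi black, miR-363 and miR-92b-3p in the wild boar, and miR-20a and miR-19a in the Large White library. There miR-20a and miR-19a had 10377 and 10357 reads, a ratio of 1.002 (0.975 to 1.03). Reads of different miRNAs were compared without correction for how well each sequence is captured in a small RNA library, so this ladder orders reads and may not order molecules.

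Between the wild boar and Large White libraries, miR-19a and miR-20b were past 2-fold lower in the wild boar and none was past 2-fold higher. Past 2-fold here means a ratio of 2 or more either way whose interval does not reach 1. miR-19a had 5080 reads in the wild boar and 10357 in the Large White library, a log2 ratio of −1.60 (−1.65 to −1.55), which was −1.12 on library totals and still past 2-fold. miR-20b had 58 and 83 reads, a log2 ratio of −1.09 (−1.60 to −0.59), which was −0.61 on library totals and under 2-fold. Of all 208 names, 13.5% were at least 2-fold lower and 11.5% at least 2-fold higher in this pair. Counts of 2 and 0 among 10 miRNAs are near that background. On library totals 1 of the 10 was lower, miR-19a, and 1 was higher, miR-92a, against 9.13% and 21.6% of all names. miR-92a had 62817 reads in the wild boar and 23627 in the Large White library, a log2 ratio of 0.84 with TMM (0.82 to 0.86) and 1.32 on library totals. The 10 log2 ratios ran from −1.60 to 0.84 with a median of −0.29, beside a median of −0.02 over all names. On library totals the medians were 0.19 and 0.46.

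The Enshi black library had more miR-20b and miR-363, the members found on the X-linked cluster alone, than the wild boar library. miR-20b, with 196 reads in the Enshi black and 58 in the wild boar library, was 3.07-fold higher (2.28 to 4.19). miR-363, with 1451 and 532 reads, was 2.48-fold higher (2.24 to 2.74). Both were past 2-fold under TMM, library totals, totals without miR-122 and DESeq2 size factors. The other 8 lay between log2 ratios of −0.50 (miR-92a) and 0.68 (miR-19a). In this pair 2 of 10 were at least 2-fold higher and 0 of 10 lower, where 6.25% of the 208 names were higher and 6.25% lower. On library totals the counts were also 2 and 0, against 7.21% and 3.37% of all names. The median of the 10 was 0.27 with TMM and that of all names −0.01.

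Between the Enshi black and Large White libraries none of the 10 was past 2-fold after TMM scaling in either direction, where 2.88% of all names were higher and 10.1% lower. miR-363 had the highest log2 ratio of this pair, 0.72 (0.58 to 0.87), on 1451 and 537 reads. miR-19a had the lowest, −0.92 (−0.96 to −0.87), on 8994 and 10357 reads. This comparison depended on scaling most, as TMM moved every log2 ratio of the pair by −0.64, against −0.48 for wild boar over Large White and −0.16 for Enshi black over wild boar. On library totals miR-17-5p, miR-20b and miR-363 were past 2-fold higher in the Enshi black library, at log2 ratios of 1.004, 1.17 and 1.36, and none was lower. This stood against 27.4% of all names higher and 2.88% lower on that scale. The signs of miR-20a, miR-19b, miR-92b-3p and miR-17-3p turned between the scalings, with −0.20, −0.50, −0.31 and −0.25 under TMM and 0.43, 0.13, 0.33 and 0.39 on library totals. The median of the 10 was −0.02 with TMM and 0.62 on library totals, beside −0.04 and 0.60 over all names.

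**Figure D2:**
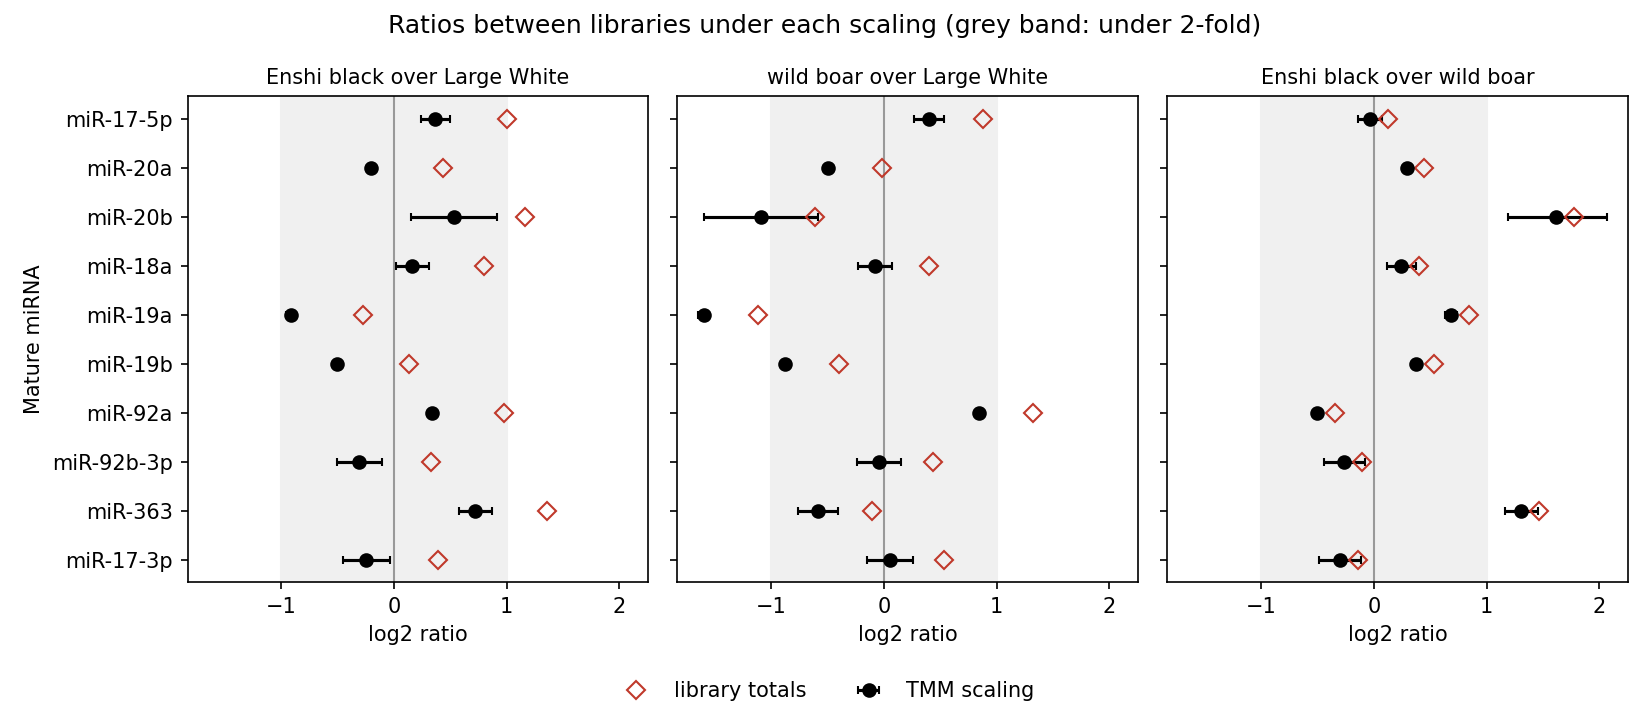
Log2 ratios of the 10 miRNAs for each pair of libraries, with TMM scaling (black, exact 95% interval of counting error) and with library totals (open red diamonds); the grey band marks ratios under 2-fold. miR-19a lies lowest and miR-92a highest for wild boar over Large White under both scalings, and miR-20b and miR-363 lie beyond the band for Enshi black over wild boar.

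Ratios between members of 1 library do not depend on scaling, and they showed how unevenly the members varied. miR-92a is listed on both clusters, so its ratios are not between products of 1 transcript alone. miR-92a had 5.43 times the reads of miR-19a in the Enshi black, 12.4 times in the wild boar and 2.28 times in the Large White library. Set against the Large White library, the ratio was 5.42-fold higher in the wild boar (Wald interval on the log scale 5.22 to 5.62) and 2.38-fold higher in the Enshi black (2.31 to 2.46). Both moved against miR-20a, from the hairpin that follows miR-19a. miR-92a stood at 3.31, 5.74 and 2.28 times miR-20a, and miR-19a at 0.610, 0.464 and 0.998 times miR-20a, in the Enshi black, wild boar and Large White libraries. miR-19a and miR-20a are each listed under 1 hairpin, so second copies do not enter their ratio. Both hold reads divided with other names, however, so reads of paralogs may still enter it.

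Within the seed families the ratios also moved. miR-19b had 6.78, 8.41 and 5.10 times the reads of miR-19a in the Enshi black, wild boar and Large White libraries, and the 1.65-fold difference between wild boar and Large White had an interval of 1.59 to 1.71. miR-17-5p had 0.102, 0.128 and 0.0689 of the reads of miR-20a, and the ratio was 1.86-fold higher for wild boar over Large White (1.69 to 2.04). Across families, miR-18a had 0.0756, 0.0781 and 0.0586 of the reads of miR-20a, and for Enshi black over wild boar the difference could not be separated from counting error (0.968-fold, interval 0.882 to 1.06). Intervals of such differences between 2 libraries are Wald intervals on the log scale.

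**Figure D3:**
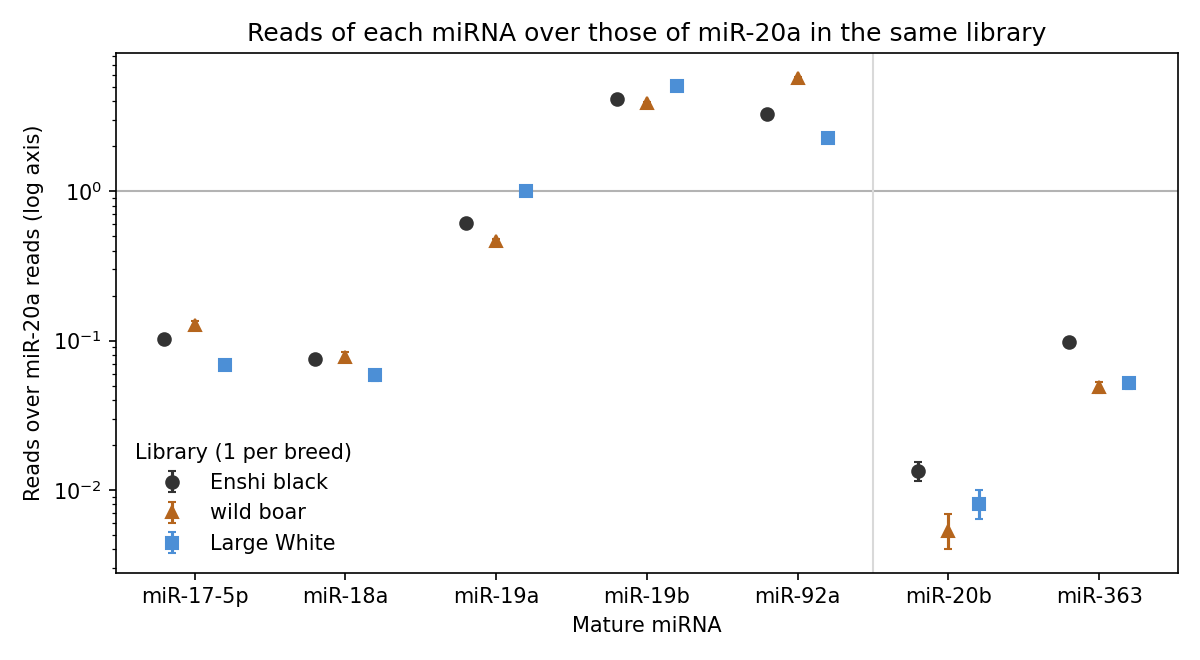
Reads of 7 miRNAs divided by the reads of miR-20a in the same library, on a log axis, with exact 95% intervals of counting error; the grey horizontal line marks equal reads, and the vertical line separates the X-linked miR-20b and miR-363. Relative to miR-20a, miR-92a is highest in the wild boar library (5.74) and miR-19a in the Large White library (0.998).

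By seed family, the reads of the 10 miRNAs were shared out differently in each library. The miR-19 family made up 50.4% of them in the Enshi black (Clopper-Pearson interval 50.1 to 50.7), 38.1% in the wild boar (37.8 to 38.4) and 63.3% in the Large White library (63.0 to 63.6). The miR-92 family made up 36.6% (36.3 to 36.9), 50.9% (50.6 to 51.2) and 24.6% (24.3 to 24.9) in the same libraries. The miR-19 family was thus the largest in the Enshi black and Large White libraries, and the miR-92 family in the wild boar library. The miR-17/20 family stayed between 9.89% in the wild boar and 11.9% in the Enshi black library, with 11.2% in the Large White library. miR-18a made up 0.803%, 0.682% and 0.609%, and miR-17-3p 0.329%, 0.406% and 0.331%.

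**Figure D4:**
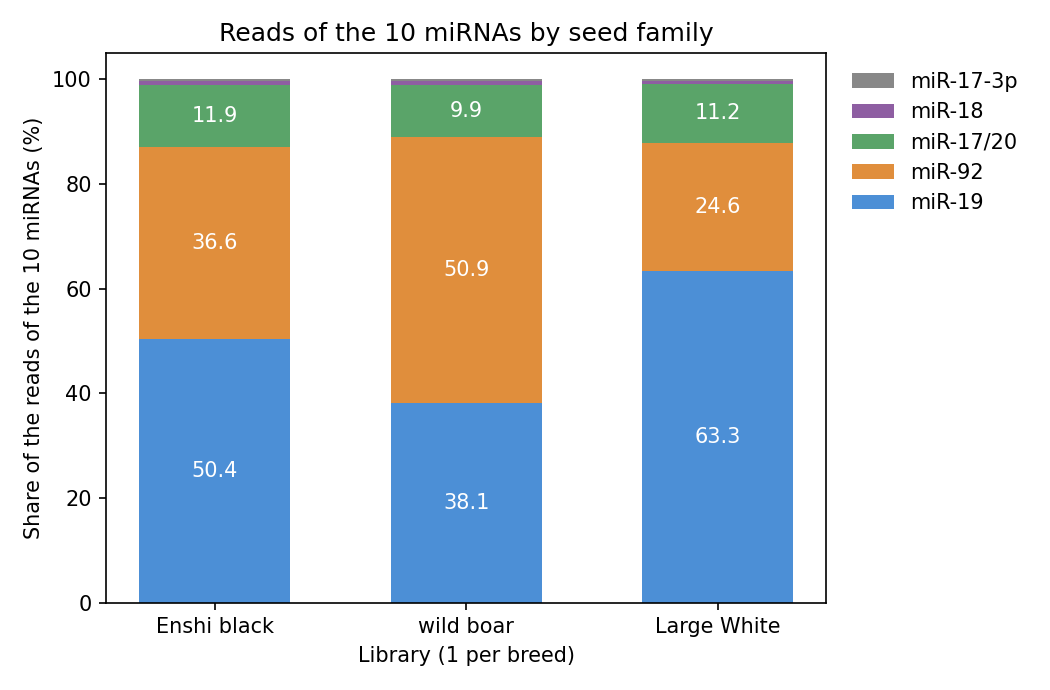
Share of the reads of the 10 miRNAs held by each seed family, as stacked percentages with 1 bar per library. The miR-19 part is largest in the Large White library (63.3%) and the miR-92 part in the wild boar library (50.9%), while the miR-17/20 part lies between 9.89% and 11.9%.

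To compare the clusters, the miRNAs found on only 1 of them were set against each other within a library. Reads of miR-20b and miR-363 came to 6.25% of those of miR-17-5p, miR-18a, miR-19a and miR-20a in the Enshi black library (5.94 to 6.56). They came to 3.23% in the wild boar (2.97 to 3.503) and 2.81% in the Large White library (2.59 to 3.04). The intervals of the wild boar and Large White libraries overlapped, and the Enshi black library lay above both. How the wild boar and Large White libraries compared depended on the miRNA divided by. miR-363 over miR-17-5p was 0.379 in the wild boar and 0.751 in the Large White library. Over miR-19a it was 0.105 and 0.0518. The size of the Enshi black excess over the Large White library depended on it too. For that pair miR-363 was 3.11-fold higher over miR-19a (Wald interval 2.81 to 3.45) and 1.28-fold over miR-17-5p (1.12 to 1.46). miR-20b over miR-17-5p could not be separated from counting error there (1.12-fold, 0.852 to 1.47). miR-363 gave most of the X-linked reads, 1451 of 1647 in the Enshi black library. Most reads of the X-linked entries, however, were those shared with the other cluster through miR-19b and miR-92a. With these included, the entries of the X-linked cluster held 61.0%, 62.6% and 57.6% of the count of the miR-17-92 entries, and the Enshi black library no longer came first.

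The copies of miR-19b were nearly level in the files, as reads matching several hairpins were divided between them. The first copy was below the second by 195.5 reads in the Enshi black, 106 in the wild boar and 104 in the Large White library, under 1% of their sum. The copies of miR-92a were not level. The miR-17-92 copy held 58.7% of miR-92a in the Enshi black, 58.5% in the wild boar and 60.8% in the Large White library, an excess of 8477, 10639 and 5100 reads over the X-linked copy. An equal division of shared reads leaves that excess unchanged. Because shared reads are divided between the entries, the nearly constant share does not show which copy the high miR-92a of the wild boar library came from.

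The miR-17 hairpin gave both arms in usable amounts. Its 5p arm held 76.8% of the hairpin's reads in the Enshi black (74.9 to 78.7), 73.4% in the wild boar (71.3 to 75.3) and 68.4% in the Large White library (65.5 to 71.2). The intervals of the Enshi black and wild boar libraries overlapped, while that of the Large White library lay just below that of the wild boar. miR-17-5p holds reads divided with other names and miR-17-3p does not, an error that these intervals leave out. miR-92b came almost wholly from its 3p arm, with 19, 8 and 6 reads of miR-92b-5p in the Enshi black, wild boar and Large White libraries against 486, 529 and 368 of miR-92b-3p.

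Of 7 further names of the paralogous clusters and of the miR-92 seed family, miR-106a, miR-18b and miR-32 were found in the files, and miR-106b, miR-25, miR-93 and miR-367 were not analysed here. miR-106a, first in the X-linked transcript, had 47, 17 and 26 reads in the Enshi black, wild boar and Large White libraries, and miR-18b had 33, 18 and 9. Both were under the expression minimum. For Enshi black over Large White, miR-106a could not be separated from counting error (log2 ratio 0.14, interval −0.58 to 0.89). miR-18b was past 2-fold higher in that pair, at 1.16 (0.07 to 2.41) and at 1.80 on library totals. For wild boar over Large White miR-106a was past 2-fold lower, at −1.18 (−2.16 to −0.25). On library totals it had −0.70, under 2-fold. miR-18b had 0.43 (−0.80 to 1.77) in that pair. miR-106a was past 2-fold higher for Enshi black over wild boar, with a log2 ratio of 1.33 (0.50 to 2.22), while miR-18b had 0.73 (−0.14 to 1.65). Both names hold reads divided with other names. miR-32, which has the miR-92 seed but lies elsewhere, had 1296, 1759 and 1820 reads. Its log2 ratio for Enshi black over Large White was −1.20 (−1.31 to −1.10), past 2-fold lower, which was −0.56 on library totals. For wild boar over Large White it had −0.62 where miR-92a had 0.84. On library totals these ratios were −0.14 and 1.32.

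Markers of several cell types moved with some of these differences. Fewer cells of a type and less RNA per cell cannot be told apart in whole liver. The 4 leucocyte miRNAs of 5 listed that the files hold (miR-142-3p, miR-142-5p, miR-150 and miR-155-5p) summed to 10708 CPM in the Enshi black, 3582 in the wild boar and 20629 in the Large White library. The 3 red cell miRNAs (miR-144, miR-451 and miR-486) summed to 4114, 3114 and 5324 CPM. Both sums had the order of miR-19a, miR-19b and miR-20a after TMM, with the Large White library first and the wild boar last, and none of these markers was at 0. On library totals the leucocyte sum and miR-19a kept that order, while the red cell sum, miR-19b and miR-20a were highest in the Enshi black library. Among the 4 leucocyte markers only miR-142-3p kept that order there, with 9679 (Enshi black), 2527 (wild boar) and 13032 CPM (Large White). miR-142-5p, miR-150 and miR-155-5p were then highest in the Enshi black library. The red cell sum was carried by miR-451 and miR-144, while miR-486 stood at 132 CPM in the Enshi black, 145 in the wild boar and 147 in the Large White library. On library totals miR-144 kept the order of miR-19a, with 799 (Enshi black), 446 (wild boar) and 1187 CPM (Large White). miR-451 and miR-486 were then highest in the Enshi black library. miR-92a had the order opposite to that of both sums after TMM, with the wild boar library first and the Large White last. miR-20b and miR-363 were highest in the Enshi black and lowest in the wild boar library. After TMM only miR-150 among the leucocyte markers had that order, with 2917, 767 and 1577 reads. The 2 endothelial markers, both arms of miR-126, summed to 16284, 12169 and 10080 CPM, and the 4 smooth muscle and stellate cell markers (miR-143-3p, miR-145-5p, miR-199a-5p and miR-214) to 42462, 34011 and 31562 CPM. The 2 hepatocyte markers, miR-122 and miR-885-5p, summed to 284715, 366642 and 536151 CPM, again with the Large White library first but with the Enshi black last, also on library totals. miR-885-5p was past 2-fold lower for Enshi black over Large White after TMM (log2 ratio −1.49), and had −0.85 on library totals. miR-223, also on the leucocyte list, was not analysed here. The part of these cell types in the differences was not tested.

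The miRNAs with the most similar profiles were looked for among the other 198 names, by the Euclidean distance of the 3 log2 CPM values after each profile's mean was taken off. For the summed miR-17-5p, miR-18a, miR-19a and miR-20a, the nearest were let-7f at a distance of 0.04, let-7g at 0.06 and miR-136 at 0.13, against a median distance of 0.77. let-7f stood at 12010 CPM in the Enshi black, 9426 in the wild boar and 16270 in the Large White library, and the summed miRNAs at 2839, 2169 and 3889 CPM. Most of that sum was miR-20a and miR-19a, with 14754 and 8994 of 26373 reads in the Enshi black library. Neither miR-17-5p (163, 166 and 126 CPM) nor miR-18a (120, 101 and 107 CPM) had the order of the sum. For the summed miR-20b and miR-363, the nearest were miR-628 at 0.21, miR-210 at 0.29 and miR-708-5p at 0.37, with a median of 1.10. miR-210, which is induced by hypoxia, stood at 95.7, 49.7 and 64.4 CPM in those libraries, and the summed pair at 177, 70.0 and 109 CPM. With 3 points per profile, these distances only describe the libraries.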

How the data were processed

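The authors deposited, for each of 3 liver libraries, a read count for every pair of mature miRNA and hairpin, and the submitters' processing notes name the genome build Sscrofa 10.2. For the aligner, counting tool and annotation, a name was not given in the sources used here. These are expected counts as deposited: reads that match several hairpins or names are divided, which gives fractions. The deposited RPM equals the count per 1000000 of the library's sum and was not used. Counts were summed over hairpins and rounded. 6 names that repeat the rows of another name were left out, which left 405. Of the 10 members, 8 hold reads divided with another name (a sum over 0.05 from a whole number), as do 65 of the 208 names compared. Whole counts had been planned for.

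edgeR 4.0.16, run in R 4.3.3, gave TMM factors of 1.20 (Enshi black), 1.08 (wild boar) and 0.772 (Large White). Ratios have exact conditional-binomial intervals and shares Clopper-Pearson intervals, computed with scipy 1.17.1. The rule was tested on simulated counts that held counting noise only, without TMM scaling, divided reads or a spread between animals. All 10 members are named, with the related and marker miRNAs listed for the study and the 3 nearest profiles of each single-cluster sum. Members and lists were chosen with earlier results of these data known. Alternatives were library totals with and without miR-122, DESeq2 1.42.0 size factors, other expression minima, 4-fold, thinned libraries, and other sets of rows.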

Additional observations from a re-analysis of the deposited data

How the results depend on the processing

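Scaling changed several counts. For wild boar over Large White, 2 members were lower with TMM and 1 on library totals, with and without miR-122, while 0 were higher with TMM and 1 on both kinds of total. For Enshi black over Large White, 0 members were higher with TMM, 3 on library totals and 1 without miR-122. At a mean CPM of at least 100, which leaves 7 members, 1 was lower for wild boar over Large White and 1 higher for Enshi black over wild boar. At 4-fold both counts were 0. Without the members that share reads with another name, which leaves miR-17-3p and miR-363, they were 0 and 1. These miRNAs alone made the miR-92 share 76.1% in the Enshi black, 51.1% in the wild boar and 61.9% in the Large White library, so that the wild boar library had the lowest share and not the highest, and the miR-17-3p share 23.9%, 48.9% and 38.1% in the Enshi black, wild boar and Large White libraries. Summing by hairpin entries gave 61.0%, 62.6% and 57.6% for the X-linked over the miR-17-92 cluster. These follow from the fewer or other rows counted. No expression minimum, DESeq2 size factors and thinning to the smallest total left all 6 counts of members within 1.5 times. The 2 members past 2-fold for Enshi black over wild boar rest on as few as 58 reads in the lower library. No paired analysis was possible because each breed has 1 library.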
